A study of Mus musculus with 42 samples.

Results

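Canonical WNT targets and feedback genes were followed in the left and right heart field of mouse embryos. The set held *Axin2*, *Lef1*, *Tcf7*, *Sp5*, *Nkd1*, *Nkd2*, *Notum*, *Rnf43*, *Ccnd1* and *Tmem88*, which are 10 of the 56953 genes counted. They were listed as targets of beta-catenin or as regulators that act inside the cell or at its membrane, and their rows were found by matching Ensembl identifiers to GENCODE symbols.

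The embryos came from a line with the lnks allele of *Ccdc40*, a gene needed for the beating of motile cilia, on the background that the study's methods write as C56Bl6J. They were staged as E8.5i, when the direction of heart looping can be seen. Wild types with rightward looping (5 embryos, 4 males and 1 female) were compared with *Ccdc40* lnks/lnks mutants with rightward looping (11 embryos, 6 males and 5 females) and with *Ccdc40* lnks/lnks mutants with inverted looping (5 embryos, 3 males and 2 females). These groups are called wild types, rightward mutants and inverted mutants. The tissue around the heart tube was cut along the midline, and each embryo gave a left and a right library, 42 in all. The rightward mutants were not divided further, although the study places some of them with the wild types and the others in a heterotaxy cluster, because the sample labels do not name these clusters.

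In the canonical WNT pathway, a WNT ligand stops the destruction of beta-catenin, which then enters the nucleus and activates genes together with TCF and LEF factors. Several of the genes that it activates restrain the pathway in turn, so that their level is often read as a sign of pathway activity. WNT signals have changing roles in heart progenitors, being needed for mesoderm and for the renewal of second heart field cells, and being held back when cells turn into heart muscle.

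TCF and LEF factors bind words that begin with CTTTG, and such words were searched in the DNA before the start of each gene's canonical transcript. The 300 bases before the start of the canonical transcript were read from the genome (GRCm39) and searched on both strands for CTTTG followed by AA or by AT, and for CTTTG followed by TA or by TT. At least 1 of these 4 words was present for 5 of the 10 members, against 18.0% of the windows of 21664 protein-coding genes. The words of *Axin2*, *Nkd1*, *Nkd2* and *Notum* are given with 10 bases on either side, in capitals on the strand of the gene, because these are the inhibitors of the pathway that held one.
Axin2, chr11:108811606-108811632, + strand: cggctcgcgcCTTTGAAgtgcacagtt
Nkd1, chr8:89247889-89247915, + strand: tccgcctcgcCTTTGATgggccgctgc
Nkd2, chr13:73996019-73996045, - strand: ggttctctctTTCAAAGgaggattcct
Notum, chr11:120552056-120552082, - strand: tccgccgccgCTTTGATcccgggggcc
The word of *Axin2* lay 22 to 16 bases before the start, that of *Nkd1* 26 to 20 bases and that of *Notum* 53 to 47 bases, all on the strand of the gene. The word of *Nkd2* lay farther away, 285 to 279 bases before the start, and read CTTTGAA on the opposite strand. *Sp5* was the member with 2 words, CTTTGTT on the opposite strand and CTTTGAT on its own. Some windows overlap exons of other transcripts or genes, with 300 of 300 bases annotated as exon for *Notum*, 201 for *Nkd1*, 100 for *Nkd2* and 62 for *Axin2*, and the words of *Axin2* and *Nkd1* lie inside the annotated range of their gene. The window of *Sp5* held no annotated exon, and it is printed whole with both words in capitals.
Sp5, chr2:70304967-70305266, + strand: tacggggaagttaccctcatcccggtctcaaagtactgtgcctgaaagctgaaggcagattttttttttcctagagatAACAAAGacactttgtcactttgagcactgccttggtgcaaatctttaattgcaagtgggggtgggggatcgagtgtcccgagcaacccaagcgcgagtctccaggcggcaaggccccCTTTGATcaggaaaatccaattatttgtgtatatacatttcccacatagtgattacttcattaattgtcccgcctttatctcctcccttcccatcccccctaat
None of the 4 words was found in the windows of *Lef1*, *Tcf7*, *Rnf43*, *Ccnd1* and *Tmem88*.
A word is a match of letters and not a site shown to be bound, and a window without one says nothing of sites elsewhere.

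Library totals ranged from about 36073700 to about 62970300 counts. The level of *Ccdc40* was between 15.2 and 26.5 CPM (counts-per-million, on the effective library size) in wild types and between 8.83 and 14.8 CPM in mutants, so that the libraries of wild types and mutants did not overlap. The heart tube was removed at dissection, but the summed level of 10 markers of heart tube muscle was between 347 and 5947 CPM and differed between sides of the same embryo. Markers of second heart field, foregut endoderm, paraxial mesoderm, neural tube, neural crest, blood, endothelium and yolk sac visceral endoderm were read as well, and no marker on any list was at 0 in all libraries. In such bulk samples, fewer cells of a type and less RNA per cell cannot be told apart.

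All 10 members were detected, over a range of levels that was wide between genes and narrow between groups. Compared per kilobase of exon, *Ccnd1*, which encodes cyclin D1 and drives cells into division, was the highest, with 55.2 ± 5.79 CPM per kilobase (SD, n = 21 embryos, mean of both sides). *Tmem88*, a membrane protein that binds Dishevelled and restrains WNT signals in heart progenitors, followed with 27.8 ± 3.30 CPM per kilobase. *Sp5*, a transcription factor that WNT signals induce, was at 11.8 ± 2.60 and *Lef1*, a DNA-binding partner of beta-catenin, at 6.18 ± 0.562 CPM per kilobase. In each of these steps, and from *Lef1* to *Nkd1*, the order was the same in 21 of 21 embryos.

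The next members formed a middle group whose order was less clear. *Nkd1*, a Dishevelled-binding inhibitor, was at 3.94 ± 0.515 CPM per kilobase and *Axin2*, a scaffold of the complex that destroys beta-catenin, at 3.50 ± 0.737. *Tcf7*, another DNA-binding partner of beta-catenin, was at 2.88 ± 0.364 and *Nkd2*, the paralog of *Nkd1*, at 2.58 ± 0.491 CPM per kilobase. *Nkd1* exceeded *Axin2* in 16, *Axin2* exceeded *Tcf7* in 19 and *Tcf7* exceeded *Nkd2* in 17 of 21 embryos, so that these neighbours changed places between embryos. The members that act on receptors and ligands were the lowest. *Rnf43*, a ubiquitin ligase that removes Frizzled receptors from the membrane, was at 0.773 ± 0.110 CPM per kilobase, and *Notum*, a secreted enzyme that inactivates WNT ligands, at 0.132 ± 0.0481 CPM per kilobase. *Notum* had between 2 and 79 counts per library, so that its ratios were the least precise, whereas every other member had at least 104 counts in each library.

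**Figure D1:**
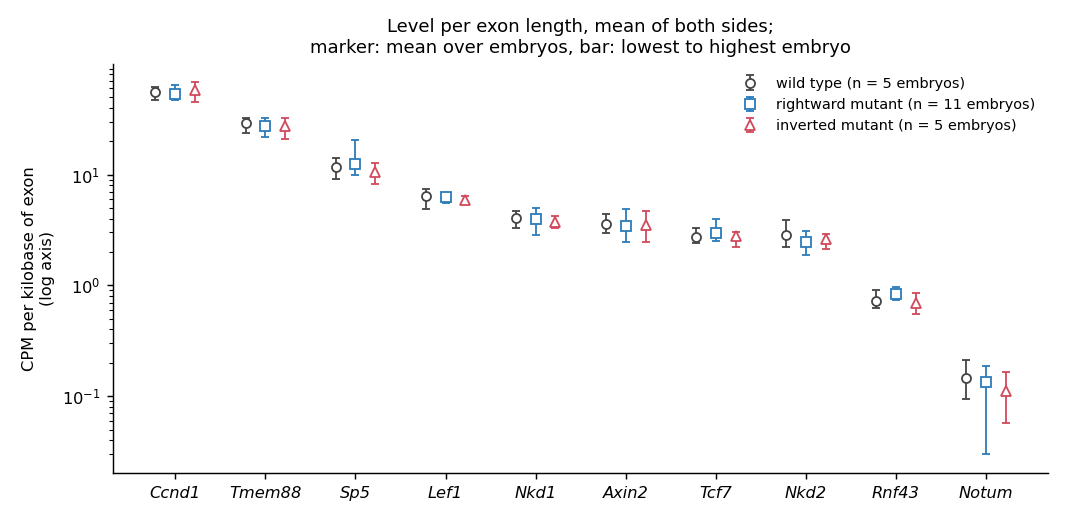
Level of each member per kilobase of exon (CPM per kilobase, log axis), taken as the mean of both sides of an embryo; markers show the mean of each group and bars run from the lowest to the highest embryo. The groups overlap for each of the 10 genes, while the genes span from 0.132 for *Notum* to 55.2 for *Ccnd1*.

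*Axin2* was higher on the right in most wild types and higher on the left in all inverted mutants. In the wild types 7_1, 8_1, 10_1, 17_7 and 22_4, its level was 22.1, 18.7, 17.3, 21.3 and 27.4 CPM on the left and 25.9, 22.3, 43.8, 34.0 and 15.4 CPM on the right. The right was thus higher in 4 of 5 wild types, and 22_4 went the other way. In the inverted mutants 2_7, 4_6, 10_3, 18_2 and 32_2, it was 28.5, 19.1, 36.2, 24.5 and 34.0 CPM on the left and 16.2, 15.3, 28.4, 18.7 and 22.7 CPM on the right. All 5 were higher on the left, although the levels of both sides overlapped between embryos. In the rightward mutants, the left ranged from 16.6 to 34.9 (median 23.0) and the right from 15.3 to 45.0 CPM (median 24.6), with the right higher in 5 of 11. The log2 fold change, right over left, was 0.33 (SE 0.27) in wild types, 0.01 (SE 0.11) in rightward mutants and -0.48 (SE 0.09) in inverted mutants, where the level on the left was 1.40 times that on the right. This last difference passed the test (edgeR's quasi-likelihood test with the embryo as a block, adjusted p = 0.0347 over all genes). The call rested on all embryos, since it was lost without any 1 of the 5 inverted mutants, with adjusted p between 0.0535 and 0.161.

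*Nkd2* was also higher on the left in all inverted mutants, at a lower level than *Axin2*. In the wild types, in the same order of embryos, it was at 13.6, 9.93, 14.8, 11.5 and 15.4 CPM on the left and 15.8, 11.3, 23.1, 13.6 and 8.26 CPM on the right, again with 22_4 alone higher on the left. In the inverted mutants, it was at 14.9, 12.7, 17.3, 13.4 and 18.2 CPM on the left and 12.3, 8.04, 11.1, 10.3 and 9.69 CPM on the right. The 5 levels on the left all lay above the 5 on the right in these mutants. The rightward mutants had between 7.40 and 15.7 CPM on the left (median 11.8) and between 8.76 and 18.1 CPM on the right (median 12.2). The log2 fold change was 0.08 (SE 0.20) in wild types, 0.06 (SE 0.10) in rightward mutants and -0.57 (SE 0.11) in inverted mutants, a level 1.48 times higher on the left, which passed the test (edgeR's quasi-likelihood test, adjusted p = 0.0448). Without any 1 of the 5 inverted mutants, the adjusted p was between 0.0517 and 0.179.

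The paralog *Nkd1* had no called asymmetry. It ranged from 26.4 to 38.6 CPM on the left and from 22.3 to 36.5 CPM on the right of inverted mutants, 3 of which were higher on the left. Its log2 fold change was -0.01 (SE 0.07), -0.02 (SE 0.09) and -0.17 (SE 0.13) in wild types, rightward mutants and inverted mutants, and none of these passed the test (lowest adjusted p = 0.601).

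*Tmem88* was higher on the left in most embryos with rightward looping and higher on the right in all embryos with inverted looping. In the wild types 7_1, 8_1, 10_1, 17_7 and 22_4, its level was 52.1, 59.9, 48.3, 55.9 and 46.3 CPM on the left and 40.3, 43.1, 28.1, 43.6 and 48.4 CPM on the right. The left was higher in 4 of 5, and 22_4 had nearly equal sides. In the rightward mutants, the left ranged from 38.3 to 56.5 (median 45.0) and the right from 28.9 to 55.2 CPM (median 40.9), with the left higher in 8 of 11. In the inverted mutants 2_7, 4_6, 10_3, 18_2 and 32_2, it was 47.6, 34.0, 26.8, 34.8 and 32.2 CPM on the left and 56.4, 47.3, 40.5, 65.4 and 49.6 CPM on the right, so that the right was higher in 5 of 5. The log2 fold change was -0.39 (SE 0.11) in wild types, -0.16 (SE 0.08) in rightward mutants and 0.58 (SE 0.09) in inverted mutants, in which the right was 1.49 times higher. Of these, the inverted mutants passed the test (edgeR's quasi-likelihood test, adjusted p = 0.0206), whereas the wild types had an unadjusted p = 0.00963 and an adjusted p = 1.000 by edgeR. The call in inverted mutants was lost without 18_2 (adjusted p = 0.0525), without 32_2 (0.104) and without 4_6 (0.0563).

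**Figure D2:**
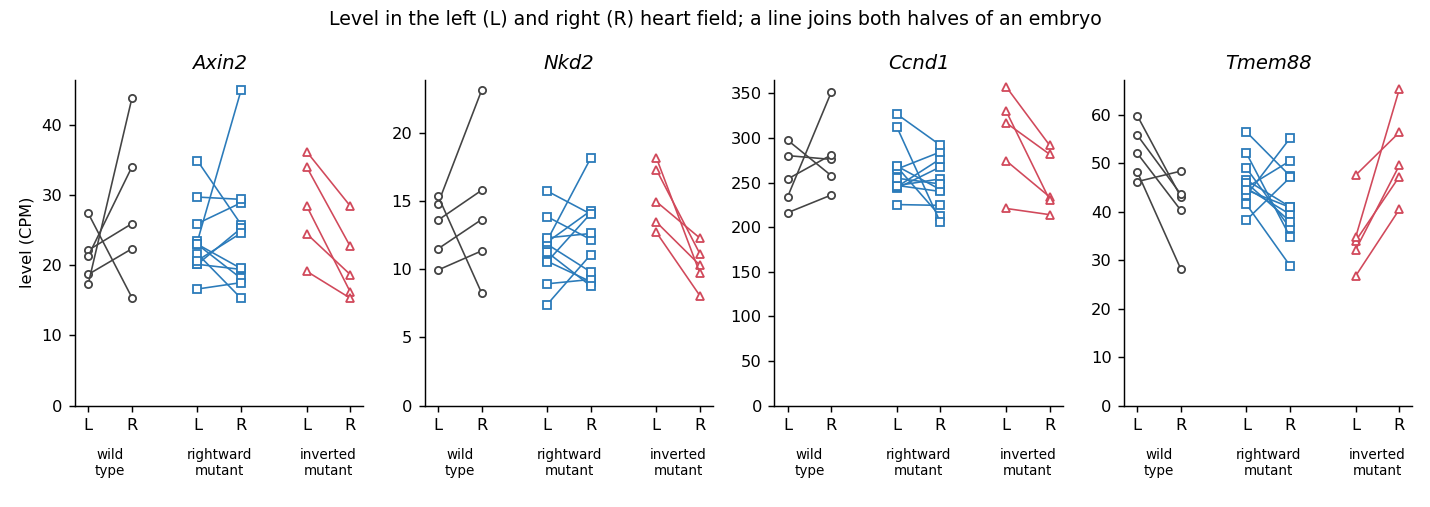
Level (CPM) of *Axin2*, *Nkd2*, *Ccnd1* and *Tmem88* in the left (L) and right (R) heart field, with a line for each embryo (5 wild types, 11 rightward mutants and 5 inverted mutants). All 5 lines of inverted mutants fall from left to right for *Axin2*, *Nkd2* and *Ccnd1* and rise for *Tmem88*, which falls in 4 of 5 wild types.

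Of the inhibitors that act on ligands and receptors, neither had an asymmetry called by edgeR, and DESeq2 called *Rnf43* in inverted mutants. *Rnf43* was at 5.66, 2.42, 3.66, 2.96 and 3.18 CPM on the left of the inverted mutants and at 5.48, 4.78, 4.83, 7.14 and 5.52 CPM on the right, higher on the right in 4 of 5. Its log2 fold change of 0.68 (SE 0.20) was larger than that of *Tmem88* but had a larger error, and it missed the threshold with edgeR (adjusted p = 0.141) and passed it with DESeq2 (adjusted p = 0.0116). In wild types and rightward mutants, it was 0.06 (SE 0.26) and 0.02 (SE 0.14). *Notum* lay between 0.222 and 0.877 CPM on the left and between 0.307 and 1.20 CPM on the right of inverted mutants. Its log2 ratio ran from -3.03 to 1.83 among rightward mutants, and its log2 fold changes of -0.51 (SE 0.40) in wild types and 0.51 (SE 0.35) in inverted mutants did not pass the test (adjusted p = 1.000 and 0.558).

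The DNA-binding partners of beta-catenin had mean log2 fold changes near 0 in all groups, while single inverted mutants went either way. *Lef1* lay between 45.1 and 59.7 CPM on the left and between 44.1 and 63.5 CPM on the right of inverted mutants, with a log2 fold change of 0.06 (SE 0.10). Its log2 ratios there ran from -0.36 to 0.38. *Tcf7* lay between 8.82 and 14.0 CPM on the left and between 8.12 and 12.6 CPM on the right of the same embryos, with log2 ratios from -0.65 in 18_2 to 0.37 in 32_2 and a log2 fold change of -0.05 (SE 0.15). In wild types and rightward mutants, the log2 fold changes of both genes were within 0.08 of 0, with SE of at most 0.10. Pooled over the 3 groups, the SD of the log2 ratio between embryos was 0.225 for *Lef1* and 0.245 for *Tcf7*, but in inverted mutants alone it was 0.306 and 0.401, above the 0.207 of *Axin2* and the 0.241 of *Tmem88*.

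The targets *Sp5* and *Ccnd1* were higher on the left in 5 of 5 inverted mutants, by less than *Axin2* and *Nkd2*. *Ccnd1* was at 275, 317, 358, 221 and 331 CPM on their left and at 234, 282, 292, 214 and 231 CPM on their right. Its log2 fold change was 0.12 (SE 0.10) in wild types, -0.08 (SE 0.06) in rightward mutants and -0.24 (SE 0.06) in inverted mutants, where it missed the threshold with edgeR (adjusted p = 0.102) and passed it with DESeq2 (adjusted p = 0.000569). *Sp5* was at 27.1, 26.1, 20.2, 30.5 and 19.0 CPM on the left and at 21.5, 23.1, 19.4, 23.2 and 16.3 CPM on the right of inverted mutants. Its log2 fold change there was -0.23 (SE 0.08, adjusted p = 0.192), against 0.19 (SE 0.14) in wild types, 4 of which were higher on the right, and -0.11 (SE 0.10) in rightward mutants.

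**Figure D3:**
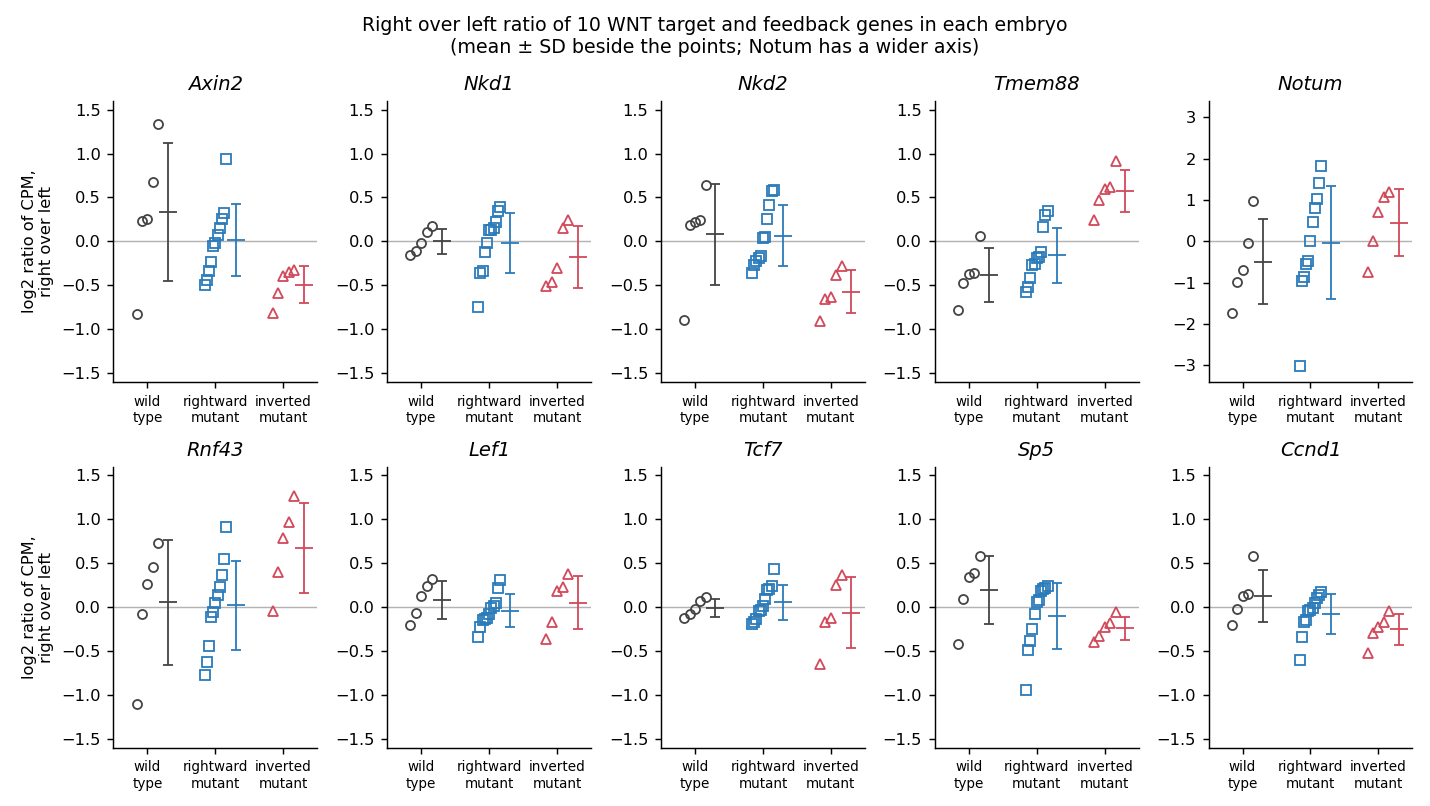
Log2 ratio of CPM, right over left, of each member in each embryo (points) with mean ± SD of the group beside them, for wild types (n = 5), rightward mutants (n = 11) and inverted mutants (n = 5). The inverted mutants lie below 0 in 5 of 5 for *Axin2*, *Nkd2*, *Sp5* and *Ccnd1* and above 0 in 5 of 5 for *Tmem88*.

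Counted over the set, asymmetry was called in inverted mutants, where *Axin2* and *Nkd2* were left-sided and *Tmem88* was right-sided, 3 of 10 members. In this comparison 2.04% of all 22960 genes tested were called, 395 of the 468 on the right. The 468 became 138 without 32_2, 181 without 18_2 and 222 without 4_6. The members had a median log2 fold change of -0.11 and 6 of 10 were negative, beside a median of -0.01 over all genes tested. Without the embryo as a block, none of the 3 was called (edgeR's adjusted p = 0.319 for *Axin2*, 0.0717 for *Nkd2* and 0.0992 for *Tmem88*). No member was called in males alone. When all 42 libraries were fitted jointly, edgeR called *Tmem88* but not *Axin2* or *Nkd2* (0.535% of 26335 genes). No member was called in wild types or in rightward mutants by edgeR, where 0% of 23182 and 0.0263% of 22795 genes were called. At an unadjusted p under 0.05, *Tmem88* was the 1 member of 10 in wild types (2.76% of all genes), there were 0 of 10 in rightward mutants (3.59%), and DESeq2 called no member in either group. The exact sign-flip test over embryos, two-sided, cannot go below p = 0.0625 with 5 embryos, and this value was reached in inverted mutants by *Axin2*, *Nkd2*, *Sp5*, *Ccnd1* and *Tmem88*.

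Whether asymmetry itself differed between groups was tested as the interaction of side and group in all 42 libraries. *Tmem88* differed between inverted mutants and wild types by 0.95 on the log2 scale (SE 0.17, edgeR's quasi-likelihood test, adjusted p = 0.0165), and its ratios in the 5 inverted mutants, from 0.25 to 0.91, all lay above those in the 5 wild types, from -0.78 to 0.07 (exact permutation test, two-sided p = 0.00794, the smallest that 252 arrangements allow). It also differed between inverted and rightward mutants, by 0.73 (SE 0.15, adjusted p = 0.0317), where the ranges of both groups overlapped because rightward mutants reached 0.35 (exact permutation test, p = 0.000687). These were 1 of 10 members in each comparison, where 0.513% and 0.311% of 26335 genes were called. Both comparisons use the same inverted mutants. The difference from wild types was lost without the wild type 10_1 (adjusted p = 0.0512) and without the inverted mutants 18_2 (0.0612) or 32_2 (0.0559), and the difference from rightward mutants was lost without any 1 of 10 embryos, with adjusted p up to 0.176 (without 18_2). Without the block, the adjusted p were 0.0913 and 0.166.

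*Axin2* differed by -0.83 (SE 0.29) between inverted mutants and wild types and by -0.51 (SE 0.24) between inverted and rightward mutants, which did not pass the test over all genes (adjusted p = 0.190 and 0.465). *Nkd2* differed by -0.66 (SE 0.23) and -0.64 (SE 0.20), with adjusted p = 0.197 and 0.198. Both comparisons with wild types passed when 22_4, the wild type that was higher on the left for both genes, was left out (*Axin2* -1.10 and *Nkd2* -0.89, adjusted p = 0.0197 for both by edgeR). Without this embryo, the calls over all genes rose as well, from 135 to 641, or 2.39% of 26800 genes. Over single members, unadjusted for the 10 that were tested, the exact permutation test gave p = 0.0476 for *Axin2*, 0.0317 for *Ccnd1* and 0.0556 for *Nkd2* between inverted mutants and wild types. Between inverted and rightward mutants, it gave p = 0.0204 for *Axin2*, 0.00229 for *Nkd2* and 0.0325 for *Rnf43*. Between rightward mutants and wild types, no member differed in asymmetry by edgeR, with 0 of 10 at an unadjusted p under 0.05 (3.04% of all genes) and none by DESeq2, and 0% of 26335 genes were called. The largest such difference among members with at least 104 counts was -0.32 (SE 0.25) for *Axin2*.

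The level of no member on either side passed edgeR's test between rightward mutants and wild types or between inverted and rightward mutants. Levels of inverted mutants and wild types were not tested against each other. On the left, *Tmem88* was lower in inverted than in rightward mutants by 0.39 on the log2 scale (SE 0.09, unadjusted p = 0.000252, adjusted p = 0.346 by edgeR with sex in the model), and DESeq2 called it (adjusted p = 0.0108). The left levels were 35.1 ± 7.66 CPM in inverted mutants (SD, n = 5), 46.2 ± 4.96 CPM in rightward mutants (SD, n = 11) and 52.5 ± 5.54 CPM in wild types (SD, n = 5). Its right levels were 51.9 ± 9.46, 41.8 ± 7.62 and 40.7 ± 7.61 CPM, so that the mean in inverted mutants on the right was close to that of wild types on the left, a likeness that was not tested. *Nkd2* was higher (0.42, SE 0.14, adjusted p = 0.432) and *Rnf43* lower (-0.61, SE 0.18, adjusted p = 0.428) on the left of inverted than of rightward mutants, each with an unadjusted p under 0.05 by edgeR.

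On the left, edgeR thus called 0 of 10 members between inverted and rightward mutants, where 0.0121% of 24838 genes were called, with 3 members at an unadjusted p under 0.05 (7.89% of all genes) and 1 called by DESeq2. Between rightward mutants and wild types, it called 0 of 10 on the left (0.0242% of genes, with 1 member and 5.02% of genes at an unadjusted p under 0.05, none by DESeq2). On the right, it called 0 of 10 between inverted and rightward mutants (0.00805% of 24859 genes, with 1 member and 4.26% of genes at an unadjusted p under 0.05) and 0 of 10 between rightward mutants and wild types (0.0121%, with 0 members and 3.28% of genes at an unadjusted p under 0.05), with none by DESeq2 in either.

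The members did not move as 1 set across embryos. After the mean of each group was removed, the right over left ratios of the 45 pairs of members had Pearson's r from -0.76 to 0.80 over 21 embryos, with a median of 0.07. Of these, 4 pairs had both an adjusted Pearson and an adjusted Spearman p under 0.05 (permutation tests with 100000 resamples, adjusted over 45 pairs). *Axin2* and *Nkd2* varied together (r = 0.80, rho = 0.68, permutation p = 5e-05 and 0.00092, adjusted p = 0.00135 and 0.0103), with r = 0.63 without 22_4 and 10_1. *Nkd2* and *Ccnd1* did so as well (r = 0.72, rho = 0.69, permutation p = 0.0003 and 0.00088, adjusted p = 0.00337 and 0.0103), with r = 0.61 without the same 2 embryos. *Tmem88* moved against both, with r = -0.76 and rho = -0.74 to *Nkd2* (permutation p = 6e-05 and 0.00027, adjusted p = 0.00135 and 0.0103) and r = -0.71 and rho = -0.70 to *Ccnd1* (permutation p = 0.0002 and 0.00051, adjusted p = 0.003 and 0.0103). Without the 2 embryos farthest from the median, these were -0.69 and -0.58, and within the 11 rightward mutants they were -0.81 and -0.83.

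*Axin2* and *Ccnd1* had r = 0.69 and rho = 0.59 (permutation p = 0.00056 and 0.00571), of which Spearman's rho missed the threshold after adjustment (adjusted p = 0.00504 and 0.0514). *Lef1* and *Sp5* were in none of the 6 pairs with an adjusted Pearson p under 0.05, nor were *Tcf7*, *Nkd1*, *Notum* and *Rnf43*. All points share the library size of both sides, which enters each ratio.

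**Figure D4:**
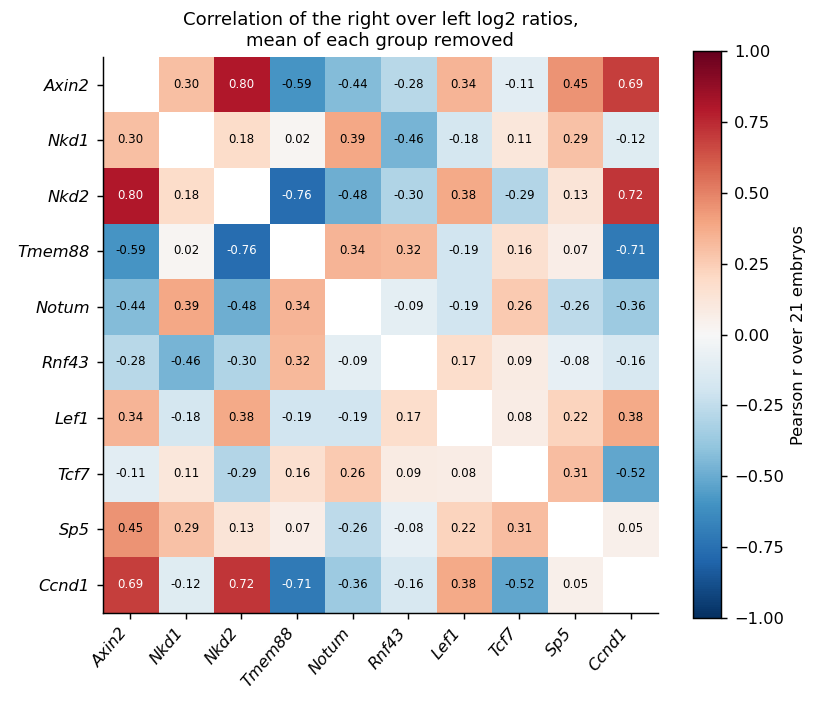
Pearson's r between members of the log2 ratio right over left, over 21 embryos with the mean of each group removed; red is positive and blue negative. *Axin2*, *Nkd2* and *Ccnd1* have positive r among each other, from 0.69 to 0.80, and negative r to *Tmem88*, from -0.59 to -0.76.

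For each member, the 3 genes with the most similar right over left ratios were taken from 11214 genes with a mean of at least 5 CPM, without a test and without removing group means. For *Tmem88*, these were *Rhoc*, a small GTPase (r = 0.94), *Ccn4*, a matricellular WNT target (r = 0.94), and *Rbpms2*, an RNA-binding protein of early heart muscle (r = 0.93). For *Axin2*, they were *Vat1l* (r = 0.89), *Dclk1* (r = 0.88) and *Ebna1bp2* (r = 0.88), and *Dclk1* was also the most similar to *Nkd2* (r = 0.86), before *Bnip3l* and *Tex9* (both r = 0.86). *Ccnd1* was most similar to *Sdad1* (r = 0.94), *Tbp* (r = 0.91) and *G3bp1* (r = 0.91), which encode a nucleolar protein, the TATA-binding protein and a stress granule protein. The highest r of the other members were 0.82 for *Rnf43* (*Adam19*, then *Klf7* and *Wdr1*), 0.81 for *Lef1* (*Ncbp3*, then *Polr3f* and *Bmf*), 0.80 for *Tcf7* (*Tab2*, then *Sox12* and *Stk40*), 0.78 for *Notum* (*Zzz3*, then *Hacd4* and *Naa30*), 0.77 for *Sp5* (*Gm57147*, then *Gm10736* and *Mettl17*) and 0.71 for *Nkd1* (*Med25*, then *Nectin3* and *Zmynd11*).

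Other WNT targets and feedback genes were read from a list of 22, of which 20 passed the filter on low counts. In inverted mutants, *Ccn4*, a matricellular protein, was called on the right with a log2 fold change of 1.01 (SE 0.18, edgeR's adjusted p = 0.0324), as was *Bambi*, a decoy receptor for BMP ligands, with 0.64 (SE 0.08, adjusted p = 0.00759). *Sp8*, a relative of *Sp5*, was left-sided with -1.87 (SE 0.32, adjusted p = 0.0279). The median of the 20 was 0.09 and 10 of 20 were positive. In wild types none of the 20 was called by edgeR, with 5 of 20 at an unadjusted p under 0.05, and *Ccn4* had a log2 fold change of -0.92 (SE 0.15).

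The asymmetry of *Ccn4*, like that of *Tmem88*, differed between inverted mutants and both other groups. It differed by 1.91 (SE 0.32) from wild types and by 1.44 (SE 0.27) from rightward mutants (edgeR's adjusted p = 0.0102 and 0.0184). Of 27 genes of the beta-catenin machinery, such as members of the destruction complex and nuclear cofactors, 1 was called. This was *Jup*, which encodes plakoglobin, a relative of beta-catenin at cell junctions, and it was right-sided in inverted mutants (0.67, SE 0.11, adjusted p = 0.0231). The median of the 27 in these embryos was -0.02, and *Apc2* had the largest value of the list, -0.89 (SE 0.29, adjusted p = 0.192).

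Markers of other tissues moved with the sides of the inverted mutants, beside *Axin2*, *Nkd2* and *Tmem88*. Of 10 markers of heart tube muscle, 8 were called on the right, with a median log2 fold change of 1.06, and their summed level was between 1399 and 2692 CPM on the left and between 2648 and 5600 CPM on the right. All 10 markers of neural tube had negative values, 4 of them called on the left (median -1.90), and they summed to between 76.2 and 147 CPM on the left and between 13.4 and 86.6 CPM on the right. Of 12 second heart field markers, 4 were called on the right (median 0.32), with sums from 581 to 780 CPM on the left and from 828 to 1021 CPM on the right. For paraxial mesoderm, 1 of 10 was called, on the left, with sums of 155 to 222 CPM on the left and 86.3 to 150 CPM on the right. Foregut endoderm had 1 of 10 called, on the right, with 901 to 1676 CPM on the left and 1407 to 2042 CPM on the right. No marker of neural crest, blood, endothelium or yolk sac visceral endoderm, 8 on each list, was called in these embryos.

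The right over left ratios of several members, called or not, correlated with those of these markers across embryos. With group means removed, *Tmem88* had r = 0.85 and rho = 0.86 to the summed foregut endoderm markers (permutation p = 1e-05 for both, the smallest that 100000 resamples allow, adjusted p = 0.0009 over 90 relations of members and lists), and r = 0.83 without the wild types 10_1 and 22_4. *Axin2* had r = -0.79 and rho = -0.65 to the second heart field markers (permutation p = 4e-05 and 0.00199, adjusted p = 0.0018 and 0.0448), and r = -0.69 without 10_1 and 19_4. *Nkd2* had r = -0.70 and rho = -0.58 to foregut endoderm (permutation p = 0.00027 and 0.00628, adjusted p = 0.00435 and 0.0466), and r = -0.53 without 10_1 and 22_4. To neural tube markers, *Axin2* had positive values, r = 0.61 and rho = 0.58 (permutation test, adjusted p = 0.0223 and 0.0466). *Nkd2* had r = 0.57 and rho = 0.57 to neural tube (permutation test, adjusted p = 0.0337 and 0.0484). To neural crest, its r was 0.70 and its rho 0.59 (permutation test, adjusted p = 0.00607 and 0.0466). Without the 2 farthest embryos, r was 0.61, 0.60 and 0.61 in this order. Among the 90 relations, both adjusted p were under 0.05 for 5 lists with *Tmem88*, 4 with *Nkd2*, 2 each with *Axin2* and *Ccnd1*, 1 with *Rnf43* and 0 with the other members. Among the wild types, the log2 ratio of heart tube muscle was 1.02 in 22_4, which stood against the others for *Axin2* and *Nkd2*. It was -1.65 in 10_1, the wild type with the strongest sides for *Axin2* and *Tmem88*. In 17_7, 7_1 and 8_1, it was 0.62, 0.32 and -0.70. *Axin2* and *Nkd2* were higher on the right in each of these embryos. For *Axin2*, r was -0.67 to foregut endoderm and -0.73 to heart tube muscle, but rho was -0.42 and -0.49, with adjusted Spearman p = 0.180 and 0.0996 by permutation, and without the 2 farthest embryos r was -0.36 and -0.45. The part of these tissue markers in the asymmetry of the members was not tested.

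**Figure D5:**
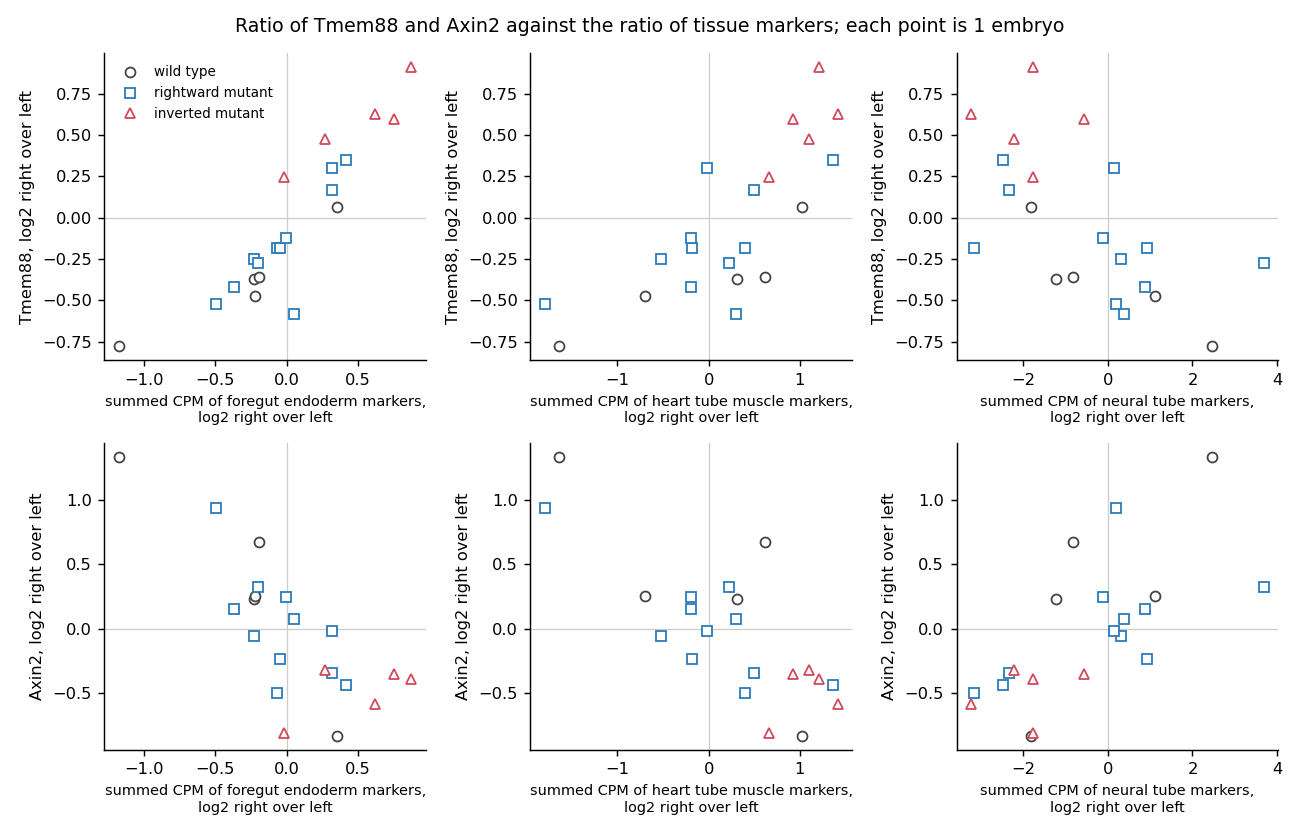
Log2 ratio right over left of *Tmem88* (top) and *Axin2* (bottom) in each of 21 embryos against the log2 ratio of the summed CPM of markers of foregut endoderm, heart tube muscle and neural tube. *Tmem88* rises with the foregut endoderm and heart tube muscle markers, and the inverted mutants lie above 0 for *Tmem88* and below 0 for *Axin2* in each panel.

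The members lie on several chromosomes (GRCm39), and the reads of some may be shared with genes that overlap them. *Lef1* is at chr3:130903919-131018005, *Tcf7* at chr11:52143107-52174619, *Sp5* at chr2:70305267-70308073, *Nkd1* at chr8:89247890-89324577, *Notum* at chr11:120541446-120552019 and *Rnf43* at chr11:87553548-87626377. *Ccnd1* shares 2315 of its 4783 exon bases (chr7:144483668-144493662) with *LTO1* on the opposite strand, *Notum* 2037 of 5317 bases with *Notumos* and 554 with *Myadml2os*, and *Lef1* 1518 of 9337 bases with *Lef1os1*. *Tmem88* (chr11:69287345-69289080) shares 161 of 1602 bases with *Naa38*, *Axin2* (chr11:108811169-108841609) 209 of 6931 bases with *Gm11670*, *Tcf7* 210 of 3841 bases with *A630014C17Rik* and *Nkd2* (chr13:73966653-73995761) none. The sources used here do not say whether strand was used in counting, so that the levels of these members are uncertain to that extent.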

How the data were processed

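Left and right heart fields of 21 embryos gave 42 poly-A RNA libraries. Per the labels and the study's methods, the authors prepared them from low amounts of RNA, removed duplicate reads, aligned them with STAR to GRCm39 and counted them per gene with featureCounts. The deposited values are raw counts, and whether strand was used is not given in the sources used here.

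Counts were tested with edgeR 4.0.16 (quasi-likelihood, TMM scaling, filterByExpr) in R 4.3.3, with Benjamini-Hochberg adjustment over all genes tested and calls at an adjusted p under 0.05. Right was compared with left with the embryo as a block, asymmetry between groups by an interaction in all 42 libraries, and levels on each side with sex as a covariate. The embryo pairs the libraries by label, and deviations of both sides correlated with a median r of 0.302 (18 of 21 pairs over 0.1). Log2 ratios of CPM used a prior count of 2, with two-sided exact sign-flip and permutation tests over embryos. DESeq2 1.42.0 and other settings were alternatives, and the scripts were tested on simulated data. No 2 libraries agreed within sampling noise. All 10 members passed the filter. The named genes were the members and, from the other lists, the called genes and the 2 largest values of each, some of which are not reported here. The members and lists were chosen with earlier results of these data known. P-values measure the spread between the embryos sampled.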

Additional observations from a re-analysis of the deposited data

Results flagged for a closer look

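The asymmetry of *Tmem88* differed between inverted mutants and wild types by 0.95 on the log2 scale, right over left, and between inverted and rightward mutants by 0.73, both by the interaction test of edgeR.

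In 3 of 60 groups of 5 values, 1 embryo stood apart from the others by Dixon's test, which chance gives in about 1 of 20 groups. On the left of wild types, *Lef1* was at 40.1 CPM in 17_7 against 59.0 to 66.4 CPM in the others, *Sp5* at 34.4 CPM in 22_4 against 18.7 to 21.9 CPM, and *Nkd1* at 27.1 CPM in 8_1 against 33.9 to 36.3 CPM.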

How the results depend on the processing

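Among inverted mutants, 3 members were called asymmetric, and this number was 5 with DESeq2 (with *Rnf43* and *Ccnd1*), 4 by edgeR with no filter on low counts (with *Ccnd1*), 0 in males alone, 0 with no replicate block, 1 in a fit of all 42 libraries, and between 0 and 1 when an embryo was left out. The member with different asymmetry between inverted mutants and wild types was 1, against 0 in males alone, 0 with no replicate block and between 0 and 3 when an embryo was left out. Between inverted and rightward mutants it was 1, against 0 in males alone, 0 with no replicate block and between 0 and 1 when an embryo was left out. On the left, DESeq2 called 1 member (*Tmem88*) between inverted and rightward mutants, against 0. Males alone and left-out embryos leave fewer samples, and the cause of the other changes was not tested. No called value changed sign. The mean log2 ratio of *Notum* in rightward mutants, which was not called, was -0.08 at a prior count of 0.5, -0.03 at 2 and 0.02 at 5. Over all genes, the 468 calls in inverted mutants became 1755 with DESeq2, 942 with no filter on low counts, 305 with no replicate block, 53 in males alone and 141 when the 3 groups were fitted jointly. Dispersions by the newer method of edgeR, chosen after seeing the data, called 3 members, *Axin2*, *Nkd2* and *Tmem88*. The low counts of *Notum* limit what can be seen of it.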
